A study of Mus musculus with 9 samples.

Results

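Transcript levels of 9 genes that set or start programmed cell death were examined in mouse hippocampus: the prosurvival genes Bcl2, Bcl2l1 and Mcl1, the pore-forming effectors Bax and Bak1, the BH3-only genes Bcl2l11 and Bbc3, and the initiator caspases Casp8 and Casp9. They were taken from the deposited table by gene symbol, and all 9 of the 9 were found among its 18474 genes and carried enough counts to be among the 14752 genes tested. Hippocampal RNA came from wild-type mice in 3 groups of 3 libraries, KA+NBP, KA and sham, and the series design allots 3 separate mice to each group at random. KA+NBP mice had received KA and NBP, KA mice a KA injection without NBP, and sham mice a control treatment, all with tissue taken 30 days afterwards. The abbreviation KA is taken to mean kainic acid, an agonist of glutamate receptors that evokes seizures in rodents, and NBP to mean butylphthalide, which the title names. KA is thus common to the KA+NBP and KA groups, no NBP-only group was analysed here, and the labels used give neither strain, age nor dose. The series title concerns cognitive impairment and the blood-brain barrier in epileptic mice.

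In the mitochondrial pathway of apoptosis, BH3-only proteins are switched on by stress and bind prosurvival relatives of BCL-2. The effectors BAX and BAK are then free to open the outer mitochondrial membrane, and the cytochrome c that leaks out brings caspase-9 into the apoptosome. Caspase-8 starts the other route, from death receptors at the cell surface, and also restrains necroptosis. These proteins are controlled to a large extent after transcription, by cleavage, phosphorylation and turnover, so a transcript level is not a measure of cell death.

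The levels of different genes are compared in TPM, an abundance that accounts for transcript length. In KA+NBP libraries Bcl2l1 had the highest mean of the 9 genes (111 ± 9.1 TPM, SD, n = 3), then Bax (94.0 ± 2.1 TPM), Mcl1 (57.3 ± 13 TPM) and Casp9 (20.8 TPM), and none of these 4 overlapped the next in order. Below them Bak1 (11.5 TPM), Bbc3 (10.8 TPM), Bcl2 (6.87 TPM), Casp8 (3.45 TPM) and Bcl2l11 (3.28 TPM) overlapped their neighbours. KA libraries had another order at the top: Bax (103 TPM), Mcl1 (92.4 TPM) and Bcl2l1 (91.2 TPM) overlapped one another in sequence, and Bak1 (16.0 TPM) stood above Casp9 (14.3 TPM) without overlap. Bcl2 (11.2 TPM), Bbc3 (9.63 TPM) and Casp8 (8.24 TPM) overlapped in sequence in KA libraries, and Bcl2l11 (4.27 TPM) came last. Sham libraries followed the order Bcl2l1 (112 TPM), Bax (91.1 TPM), Mcl1 (52.5 TPM), Casp9 (24.2 TPM), Bak1 (10.6 TPM), Bbc3 (10.4 TPM), Bcl2 (5.51 TPM), Bcl2l11 (3.55 TPM) and Casp8 (2.79 TPM), and Bak1 and Bbc3 were the only neighbours that overlapped. Casp8 was therefore the lowest of the 9 in sham libraries, and in KA libraries it stood above Bcl2l11.

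Changes of 1 gene between groups are given in CPM, counts per 1000000 of a library total scaled by TMM, and tested with edgeR's quasi-likelihood test across all 14752 genes. A gene is called where the Benjamini-Hochberg adjusted p of that test is under 0.05. Each log2 fold change is given with its SE, the standard error, and intervals are 95% intervals from the same fit. Library totals ran from 15699251 to 16374637 estimated counts, and a count of 0 would allow a level of up to 0.183 to 0.191 CPM. KA+NBP replicate 2 stood apart from its group: chi-square per degree of freedom was 37.5 and 43.7 for its pairs with the other KA+NBP libraries, against 5.76 for the pair without it, where 1 is sampling noise alone.

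Of the 9 genes, 5 were called in both KA against sham and KA+NBP against KA, and their promoter windows are shown so that genes called in both comparisons, 4 in one direction and Casp9 in the other, can be compared at their starts. Each window runs from 250 bases before to 50 bases after the gene's start in RefSeq on GRCm38.p6, written 5′ to 3′ along the gene's strand. Bcl2 lies at chr1:106714241-106714540 (minus strand), Mcl1 at chr3:95658471-95658770 (plus strand), Bak1 at chr17:27028578-27028877 (minus strand), Casp8 at chr1:58802252-58802551 (plus strand) and Casp9 at chr4:141793362-141793661 (plus strand). Capitals mark every match, on either strand, to 8 motifs. The AP-1 site was searched as TGANTCA and the CRE as TGACGTCA. The GAS element of STAT proteins was searched as TTCNNNGAA. The GC box was searched as GGGCGG, the CCAAT box as its name spells and the E-box as CACGTG. The ISRE core and NF-kB motifs, each 10 letters long, are given by name, with fixed ends and 2 free positions inside.
Bcl2: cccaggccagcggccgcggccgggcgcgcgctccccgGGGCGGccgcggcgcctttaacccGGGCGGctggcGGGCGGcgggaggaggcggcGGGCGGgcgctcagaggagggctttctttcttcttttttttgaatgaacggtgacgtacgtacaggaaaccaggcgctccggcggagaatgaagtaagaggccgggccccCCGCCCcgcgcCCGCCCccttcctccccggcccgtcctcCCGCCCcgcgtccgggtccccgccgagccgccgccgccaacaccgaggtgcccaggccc
Mcl1: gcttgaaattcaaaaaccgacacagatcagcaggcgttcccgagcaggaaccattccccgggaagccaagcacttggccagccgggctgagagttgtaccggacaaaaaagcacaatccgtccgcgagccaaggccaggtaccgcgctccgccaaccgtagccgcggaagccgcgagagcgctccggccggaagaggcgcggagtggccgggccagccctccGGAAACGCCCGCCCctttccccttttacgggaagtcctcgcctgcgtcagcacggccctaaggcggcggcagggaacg
Bak1: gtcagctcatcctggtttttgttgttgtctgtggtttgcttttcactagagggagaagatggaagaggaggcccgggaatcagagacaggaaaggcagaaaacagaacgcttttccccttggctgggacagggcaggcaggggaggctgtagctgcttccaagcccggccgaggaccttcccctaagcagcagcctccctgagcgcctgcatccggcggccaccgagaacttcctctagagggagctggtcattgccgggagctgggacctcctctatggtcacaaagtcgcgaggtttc
Casp8: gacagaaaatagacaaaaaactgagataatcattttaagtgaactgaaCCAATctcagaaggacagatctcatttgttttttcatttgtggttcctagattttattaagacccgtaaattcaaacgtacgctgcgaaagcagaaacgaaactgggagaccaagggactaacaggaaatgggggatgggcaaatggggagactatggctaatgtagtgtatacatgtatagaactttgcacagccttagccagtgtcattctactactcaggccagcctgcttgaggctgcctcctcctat
Casp9: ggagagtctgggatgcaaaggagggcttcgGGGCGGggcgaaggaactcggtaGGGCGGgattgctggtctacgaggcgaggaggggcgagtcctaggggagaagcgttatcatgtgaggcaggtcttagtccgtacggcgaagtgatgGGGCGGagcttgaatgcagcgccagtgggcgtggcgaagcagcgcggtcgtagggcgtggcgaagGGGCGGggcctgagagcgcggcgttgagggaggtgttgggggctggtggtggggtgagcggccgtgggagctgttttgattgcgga
The Bcl2 window held 7 GC boxes and 76.0% G or C, and the Casp9 window held 4 GC boxes and 66.0% G or C. The Mcl1 window had 65.7% G or C, with 1 NF-kB match 28 bases before the start that overlapped 1 GC box. Casp8 had the lowest G or C content of the 5, 42.0%, with no GC box and 1 CCAAT box 202 bases before the start. Bak1 (58.3% G or C) also had no GC box and held no match to any of the 8 motifs. Among 32851 promoter windows of the same length, 35.7% held a GC box, 37.4% a CCAAT box, 1.63% the NF-kB letters, 7.81% AP-1, 1.79% CRE, 8.30% GAS, 3.44% the ISRE core and 7.15% the E-box. No motif was found in all 5 windows, and a match is a description of these letters only.

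KA against sham, the comparison that shows the hippocampus after KA without NBP, found calls in each functional class of the 9 genes except the BH3-only genes. Casp8, Bcl2, Mcl1, Bak1 and Bax rose and Casp9 fell, so 6 of the 9 genes were called, 5 higher and 1 lower. Over all tested genes 33.6% were called in this comparison, 19.0% higher and 14.6% lower. KA and sham libraries were fully separate for 7 of the 9 genes, against 56.3% of all genes. Bcl2l1, Bcl2l11 and Bbc3 did not pass the test.

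Bcl2 (Gene ID 12043; GRCm39 chromosome 1, 106465906 to 106642020), the founding prosurvival member, stood at 33.0, 32.9 and 32.7 CPM in KA libraries, against 13.1, 18.8 and 14.1 CPM in sham libraries. The KA libraries were nearly equal and all above sham. Its log2 fold change was 1.10 (SE 0.25, interval 0.54 to 1.66; edgeR quasi-likelihood test, Benjamini-Hochberg adjusted p = 0.0106). Mcl1 (17210; chromosome 3, 95564017 to 95583553), a short-lived prosurvival protein, stood at 122.9, 108 and 149 CPM in KA libraries and at 69.7, 67.2 and 67.3 CPM in sham libraries. Here the sham libraries were tight and the KA libraries, all higher, spread widely. Mcl1 rose by 0.90 on the log2 scale (SE 0.15, interval 0.57 to 1.22, edgeR adjusted p = 0.0032). Bcl2l1 (12048; chromosome 2, 152600652 to 152675723), which encodes BCL-XL, had 82.3, 85.3 and 89.5 CPM in KA libraries, against 102, 95.2 and 100 CPM in sham libraries. All KA libraries lay below all sham libraries, by a small margin, and the log2 fold change of -0.21 (SE 0.08, interval -0.39 to -0.03) did not pass (edgeR adjusted p = 0.0761).

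Bak1 (12018; chromosome 17, 27238786 to 27247601) had 12.2, 11.5 and 11.5 CPM in KA libraries, against 6.67, 7.15 and 8.41 CPM in sham libraries. The groups were separate, and the log2 fold change was 0.66 (SE 0.14, interval 0.34 to 0.99, edgeR adjusted p = 0.00903). The span of Ggnbp1 covers all of Bak1 in the deposited coordinates, and Ggnbp1 averaged 2.98 CPM in KA and 2.62 CPM in sham libraries. The sources used here do not say whether counting used strand, so reads of the overlapping pair may be shared. Bax (12028; chromosome 7, 45111119 to 45116344), the other effector, had 25.7, 24.2 and 28.6 CPM in KA libraries and 21.2, 23.1 and 21.3 CPM in sham libraries. Its KA libraries all lay above sham, with a gap smaller than the spread within KA. Bax rose by 0.26 on the log2 scale (SE 0.08, interval 0.07 to 0.44, edgeR adjusted p = 0.0380), and its call held in 5 of 16 alternative settings, with adjusted p from 0.0238 to 0.125. It was lost without KA replicate 1 or 3, KA+NBP replicate 1 or 3, or any sham library.

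Bcl2l11 (12125; chromosome 2, 127967958 to 128004467), which encodes the BH3-only protein BIM, had 10.5, 8.16 and 6.54 CPM in KA libraries, against 6.74, 6.90 and 6.34 CPM in sham libraries. The groups overlapped, and the log2 fold change was 0.33 (SE 0.20, interval -0.12 to 0.79, edgeR adjusted p = 0.231). Bbc3 (170770; chromosome 7, 16042307 to 16052259), which encodes the p53 target PUMA, had 8.85, 7.36 and 4.01 CPM in KA libraries, against 5.92, 7.46 and 6.84 CPM in sham libraries. The KA libraries lay on both sides of sham, and the interval of the log2 difference, -0.62 to 0.62, leaves room for changes of either sign (edgeR adjusted p = 0.998).

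Casp8 (12370; chromosome 1, 58834398 to 58886662), the death receptor initiator, had the largest log2 fold change of the 9 genes. It stood at 7.08, 7.98 and 6.60 CPM in KA libraries, against 2.62, 2.05 and 2.20 CPM in sham libraries. Every KA library was well above every sham library, and the fitted difference was 3.15-fold (log2 fold change 1.65, SE 0.32, interval 0.93 to 2.38, edgeR adjusted p = 0.00586). Casp9 (12371; chromosome 4, 141520923 to 141543289), the apoptosome initiator, had 22.7, 22.8 and 20.7 CPM in KA libraries, against 36.7, 34.1 and 34.96 CPM in sham libraries. It fell by 0.67 on the log2 scale (SE 0.12, interval -0.94 to -0.41, edgeR adjusted p = 0.00423), without overlap. Casp9 was the 1 called member that was lower in KA.

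**Figure D1:**
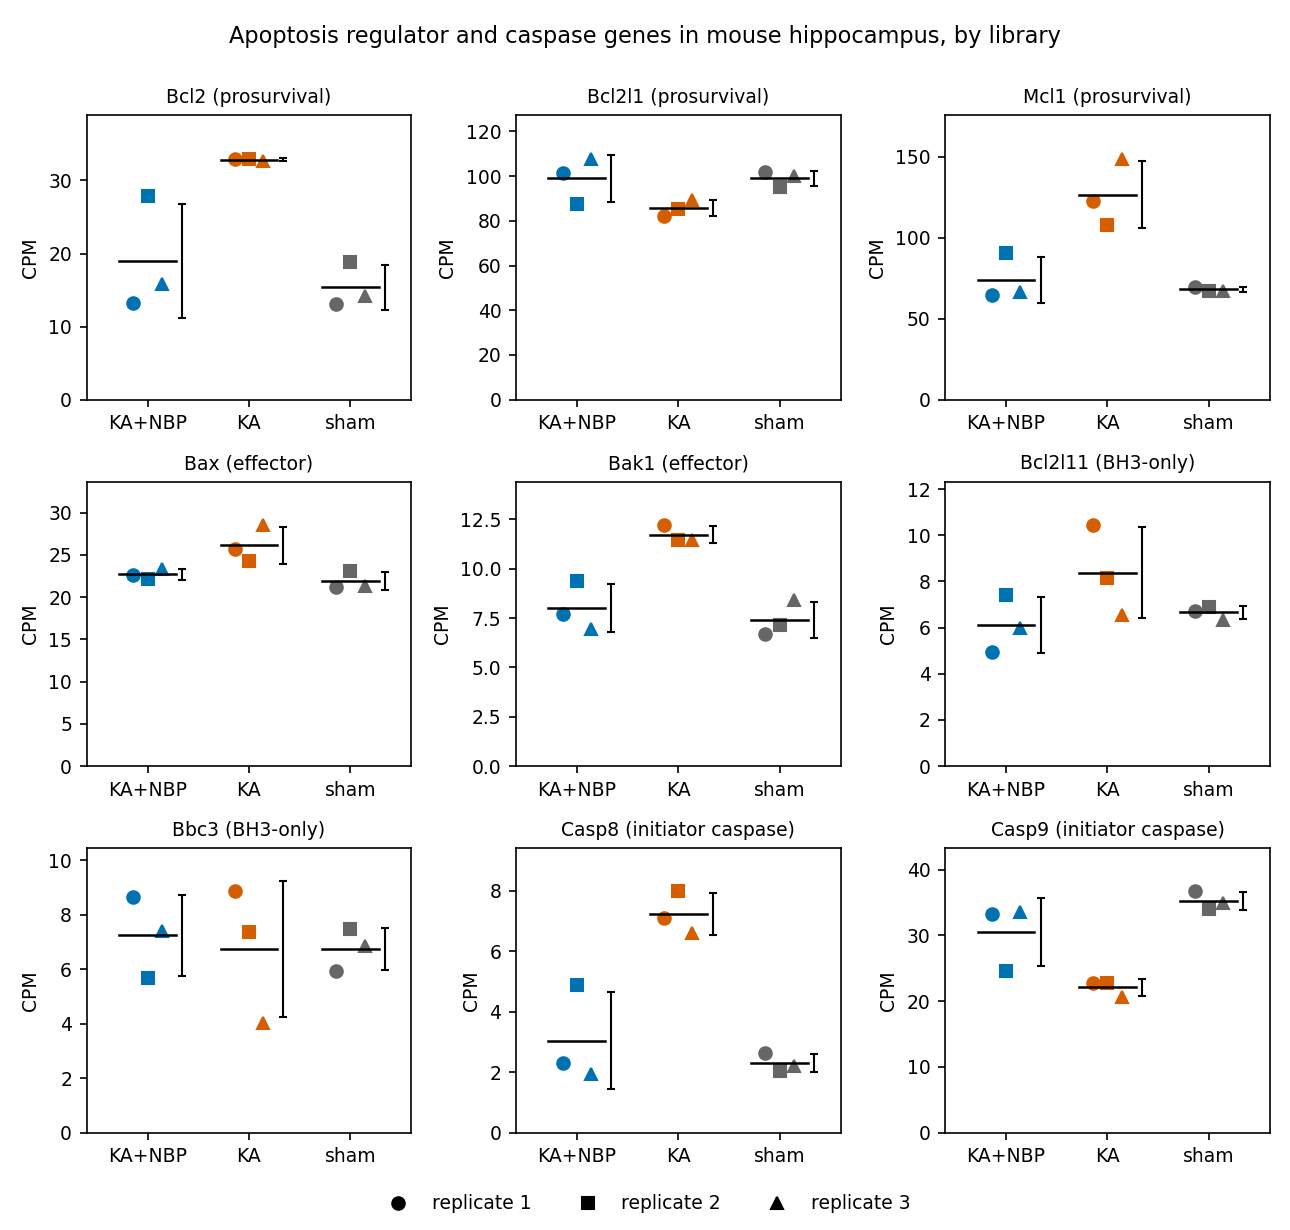
CPM of the 9 genes in each library, 1 panel per gene with the y axis from 0. Points are libraries (marker shape gives the replicate number), lines are group means and bars are SD over 3 libraries. Bcl2, Mcl1, Bak1 and Casp8 are highest in all 3 KA libraries and Casp9 is lowest there, and KA+NBP replicate 2 (square) lies nearest to KA in these 5 panels.

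Markers of other cell types moved with these differences. As a background, 19.0% of all tested genes were called higher and 14.6% lower in KA against sham. In KA libraries 9 of 10 microglial markers were called higher than in sham, and their summed level was 1436 to 1467 CPM in KA, against 383 to 458 CPM in sham libraries. Of the astrocyte markers 7 of 8 were called higher, with sums of 10082 to 12455 CPM in KA and 4325 to 4852 CPM in sham libraries. Gfap alone averaged 4862 CPM in KA and 345 CPM in sham libraries, a large part of the difference between these sums. Gja1 was the astrocyte marker not called (edgeR adjusted p = 0.292). Of the pan-neuronal markers 5 of 8 were called lower, with sums of 4722 to 5370 CPM in KA and 6468 to 6858 CPM in sham libraries. In bulk tissue, fewer cells of a type and less RNA per cell cannot be told apart. No oligodendrocyte marker of 6 was called, and infiltrating leukocyte markers summed to 2.34 to 3.54 CPM in KA and 0.561 to 2.20 CPM in sham libraries, with Ly6g at 0 in all KA libraries. Endothelial markers summed to 204 to 232 CPM in KA and 145 to 168 CPM in sham libraries, and 4 of 6 were called higher in KA. Markers of hippocampal neurons were present in all groups and summed to 1209 to 1407 CPM in KA+NBP, 994 to 1084 CPM in KA and 1273 to 1436 CPM in sham libraries. That sum joins opposite changes. In KA against sham 2 of these 8 were called higher, Prox1 and Pcp4, and 4 lower, Neurod6, Cpne4, Fibcd1 and C1ql2. The part of these cell types in the results for the 9 genes was not tested.

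KA+NBP against KA asks what differed when NBP was given with KA. Bcl2, Mcl1, Bak1 and Casp8 were lower and Casp9 was higher in KA+NBP than in KA, so 5 of the 9 genes were called, 4 lower and 1 higher. Over all tested genes 22.7% were called, 12.7% lower and 10.0% higher. This comparison shares its KA libraries with KA against sham, so opposite signs in the pair are partly built in. The libraries did not overlap for 6 of the 9 genes, against 36.6% of all genes.

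Mcl1 had 64.8, 90.4 and 66.7 CPM in KA+NBP libraries, against 122.9, 108 and 149 CPM in KA libraries. All KA+NBP libraries were below all KA libraries, and Mcl1 fell by 0.77 on the log2 scale (SE 0.14, edgeR quasi-likelihood test, Benjamini-Hochberg adjusted p = 0.00844). Bcl2 had 13.3, 27.9 and 15.8 CPM in KA+NBP libraries, against 33.0, 32.9 and 32.7 CPM in KA libraries. The second KA+NBP library came close to KA without reaching it, and the log2 fold change of -0.79 (SE 0.25) was just inside the threshold (edgeR adjusted p = 0.0472). Bcl2l1 had 101, 87.6 and 108 CPM in KA+NBP libraries and 82.3, 85.3 and 89.5 CPM in KA libraries. These groups overlapped, and its log2 fold change was 0.21 (SE 0.08, edgeR adjusted p = 0.0949).

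Bak1 had 7.69, 9.35 and 6.97 CPM in KA+NBP libraries, against 12.2, 11.5 and 11.5 CPM in KA libraries. It fell without overlap, by 0.55 on the log2 scale (SE 0.14, edgeR adjusted p = 0.0265). Bax was tight in KA+NBP at 22.6, 22.1 and 23.4 CPM, against 25.7, 24.2 and 28.6 CPM in KA libraries. Its libraries did not overlap, yet the log2 fold change of -0.20 (SE 0.08) did not pass (edgeR adjusted p = 0.0994). Of the BH3-only genes, Bcl2l11 had 4.96, 7.40 and 5.96 CPM in KA+NBP libraries and 10.5, 8.16 and 6.54 CPM in KA libraries, with a log2 fold change of -0.46 (SE 0.20, edgeR adjusted p = 0.132). Bbc3 had 8.64, 5.69 and 7.41 CPM in KA+NBP libraries and 8.85, 7.36 and 4.01 CPM in KA libraries, with a log2 fold change of 0.10 (SE 0.28, edgeR adjusted p = 0.813). Both BH3-only genes overlapped between the groups.

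Casp8 had 2.29, 4.89 and 1.95 CPM in KA+NBP libraries, against 7.08, 7.98 and 6.60 CPM in KA libraries. All KA+NBP libraries were lower, replicate 2 least so, and the log2 fold change was -1.24 (SE 0.31, edgeR adjusted p = 0.0238). Casp9 had 33.3, 24.5 and 33.6 CPM in KA+NBP libraries, against 22.7, 22.8 and 20.7 CPM in KA libraries. It rose by 0.46 on the log2 scale (SE 0.12, edgeR adjusted p = 0.0247), again with replicate 2 nearest to KA. Without any 1 of KA replicates 1, 2 and 3 or KA+NBP replicates 1 and 3, Mcl1 was the only member called, and without KA+NBP replicate 2 there were 7, with Bcl2l1 (adjusted p = 0.00458) and Bcl2l11 (adjusted p = 0.0323) added. Fitted on the KA+NBP and KA libraries alone, 1 member was called, Mcl1. Bcl2 also missed the threshold without sham replicate 1, 2 or 3, with adjusted p of 0.0668, 0.0604 and 0.0715.

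**Figure D2:**
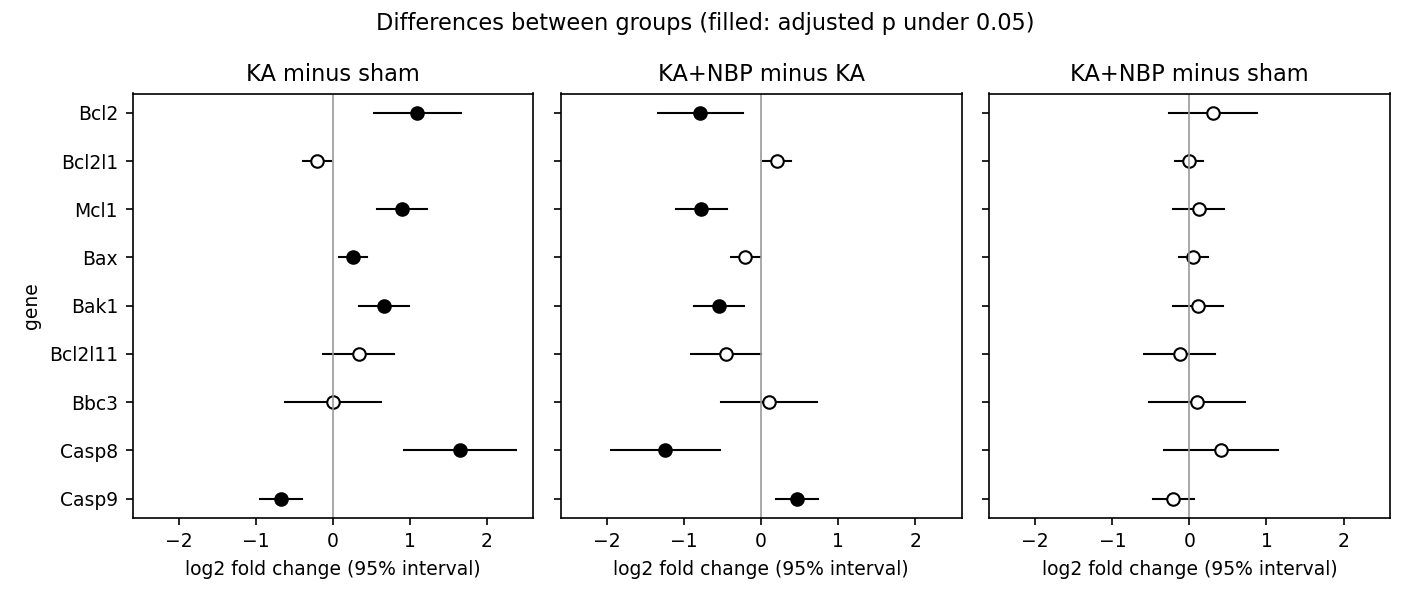
Log2 fold changes of the 9 genes (x axis) in KA minus sham, KA+NBP minus KA and KA+NBP minus sham, with 95% intervals from the edgeR fit. Filled points have an adjusted p under 0.05: 6 in the first panel, 5 in the second and 0 in the third.

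KA+NBP against sham gave no call among the 9 genes (0 of 9, with 0 at an unadjusted p under 0.05), and 0 of the 14752 genes were called by edgeR, 0.00%. Over all genes 248 (1.68%) had an unadjusted p under 0.05, and DESeq2 called 1. Casp8 had the widest interval, -0.33 to 1.16 around a log2 fold change of 0.41, and Bcl2 had 0.31 (interval -0.26 to 0.88). Narrower intervals were those of Bcl2l1, -0.18 to 0.18 around 0.00, and Bax, -0.13 to 0.24 around 0.05. The others were 0.12 for Mcl1 (-0.21 to 0.45), 0.11 for Bak1 (-0.22 to 0.44), -0.12 for Bcl2l11 (-0.59 to 0.34) and 0.10 for Bbc3 (-0.52 to 0.72). Casp9 was the 1 member whose libraries did not overlap, against 6.37% of all genes, with 24.5 to 33.6 CPM in KA+NBP and 34.1 to 36.7 CPM in sham libraries (log2 fold change -0.21, interval -0.47 to 0.05). A missed threshold does not show that these groups have the same levels.

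The KA+NBP libraries differed among themselves more than the group means show. On a log2 CPM scale where the sham mean is 0 and the KA mean is 100, replicate 2 stood at 78.8 for Bcl2, 66.1 for Casp8, 77.3 for Casp9, 51.3 for Bak1 and 46.3 for Mcl1. Replicates 1 and 3 stood at -17.0 and 5.48 for Bcl2, 0.395 and -13.3 for Casp8, 11.9 and 10.1 for Casp9, 9.0 and -12.3 for Bak1 and -7.94 and -3.23 for Mcl1. All 5 genes thus placed replicate 2 between the sham and KA means and replicates 1 and 3 close to sham. Bax did not follow, with 6.68 for replicate 2 and 19.1 and 36.9 for replicates 1 and 3. In KA+NBP replicate 2 the microglial markers summed to 719 CPM, the astrocyte markers to 8235 CPM and the choroid plexus markers to 620 CPM. The other KA+NBP libraries had 350 to 386, 4317 to 4559 and 28.5 to 32.0 CPM for these lists. Within the astrocyte list, Gfap ran from 313 to 2321 CPM over the KA+NBP libraries. Infiltrating leukocyte markers summed to 6.36 CPM in replicate 2, against 0.191 and 0.126 CPM in replicates 1 and 3. Pan-neuronal markers summed to 5486 CPM in replicate 2, against 6840 and 6848 CPM in the others. In KA+NBP against KA, 9 of 10 microglial, 5 of 8 astrocyte and 2 of 6 endothelial markers were called lower. Of the pan-neuronal markers 4 of 8 were called higher. Among all tested genes 12.7% were called lower and 10.0% higher. The part of these cell types in the results was not tested.

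The ratio of Bax to Bcl2, often quoted as a balance of the family, was formed within each library from TPM as a description. It was 19.6, 9.05 and 17.3 in KA+NBP libraries, 9.14, 8.54 and 10.1 in KA libraries and 18.8, 14.2 and 17.6 in sham libraries. Every KA library was lower than every sham library, since Bcl2 differed by more than Bax, and KA+NBP replicate 2 lay within the KA range. Further ratios were chosen after their values were seen. Casp9 to Casp8 was 9.03, 3.01 and 10.9 in KA+NBP libraries, 1.88, 1.67 and 1.67 in KA libraries and 8.00, 8.92 and 9.15 in sham libraries. The KA libraries were the lowest for it, and KA+NBP replicate 2 was nearest to them.

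**Figure D3:**
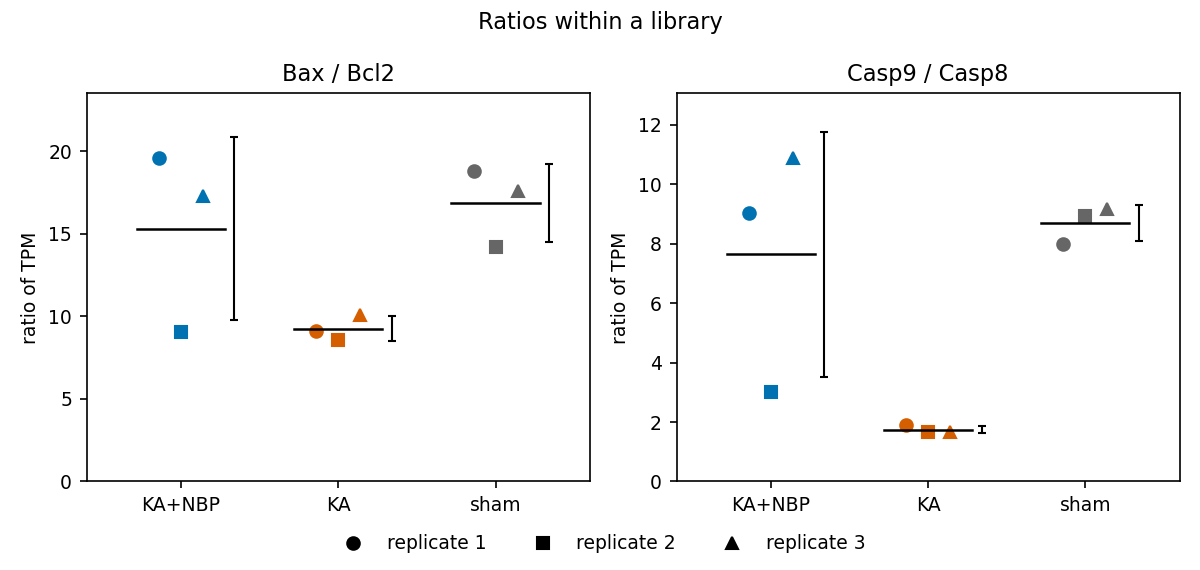
Ratio of TPM within each library for Bax over Bcl2 and Casp9 over Casp8, y axes from 0, with libraries as points, group means as lines and SD over 3 libraries as bars. KA libraries lie at 8.54 to 10.1 and 1.67 to 1.88, below all sham libraries in both panels.

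The prosurvival genes among the members differed in make-up more than in sum. Their sum leaves out relatives such as Bcl2l2, which averaged 151 CPM in KA+NBP, 124 CPM in KA and 157 CPM in sham libraries. CPM does not account for transcript length, so these Bcl2l2 levels cannot be set beside a sum in TPM. Bcl2, Bcl2l1 and Mcl1 together came to 168, 184 and 176 TPM in KA+NBP libraries, 191, 181 and 212 TPM in KA libraries and 172, 167 and 170 TPM in sham libraries. The share of Bcl2l1 in that sum was 67.6, 55.3 and 68.0% in KA+NBP libraries, 46.5, 50.1 and 44.3% in KA libraries and 66.2, 64.6 and 66.5% in sham libraries. Bcl2l1 held most of the sum in all sham and KA+NBP libraries, and in KA libraries its share was close to that of Mcl1, which was 43.7 to 50.5%. Bax over Bak1 was 8.46, 6.77 and 9.77 in KA+NBP libraries, 6.14, 6.11 and 7.18 in KA libraries and 9.20, 9.35 and 7.37 in sham libraries. The KA range lay below the sham range for this ratio by a narrow gap.

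**Figure D4:**
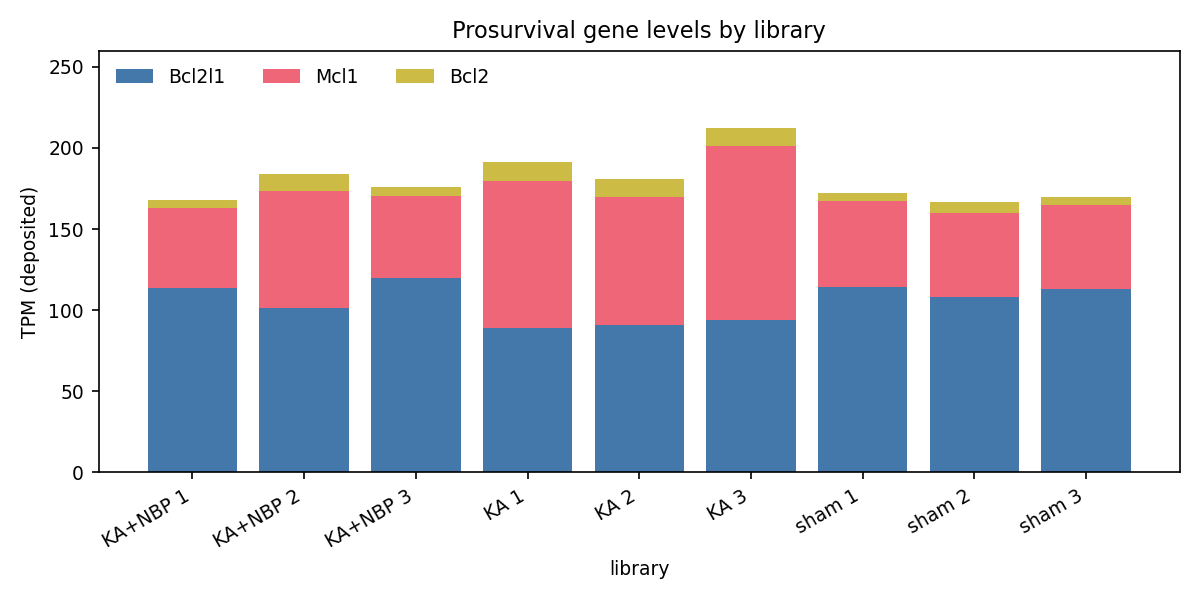
Deposited TPM of Bcl2l1, Mcl1 and Bcl2 stacked for each of the 9 libraries, y axis from 0. The stacks reach 168 to 184 TPM in KA+NBP, 181 to 212 TPM in KA and 167 to 172 TPM in sham libraries, and the Mcl1 segment is largest in KA.

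The rest of the cell death pathway was read from 10 lists of 84 genes, of which 83 were in the table and 76 were tested. In KA against sham 27 rose and 7 fell, 44.7% of those tested against 33.6% of all genes, with a median log2 fold change of 0.29 where the median of all genes was 0.01. With KA+NBP against KA, 5 rose and 13 fell, 23.7%, a share near the 22.7% of all genes, with a median of -0.27 against -0.01 for all genes. Against sham, KA+NBP gave 0 calls and a median of 0.06. The counts depended on the libraries in the fit. For KA against sham, 34 genes in all, there were 20 without KA replicate 3. Without sham replicates 1, 2 and 3 there were 15, 17 and 13. Calls over all tested genes fell in the same fits, from 4961 to 3490, 2721, 3401 and 2762. The fall was thus not particular to these lists. Without sham replicate 3 the lists' 13 calls stood beside 2762 of 14930 genes, so the excess of the main fit was not kept. For KA+NBP against KA, 18 in all, there were 45 without KA+NBP replicate 2 and 5 without KA+NBP replicate 1 or 3. Without KA replicates 1, 2 and 3 there were 11, 7 and 6. All-gene calls moved the same way, from 3355 to 6355 without KA+NBP replicate 2 and to 1295 and 1510 without replicates 1 and 3. They were 2053, 2067 and 1741 without KA replicates 1, 2 and 3. The microglial and astrocyte marker sums moved in the direction of the joint median of these lists. Not every list did: stress signalling to BH3-only genes had a median of -0.16 in KA against sham and 0.21 in KA+NBP against KA.

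Closest to the members are their own relatives. In KA against sham 2 of 4 tested prosurvival relatives rose and 1 fell, and in KA+NBP against KA 1 rose and 1 fell. Over all tested genes 33.6% and 22.7% were called. Bcl2a1b, a prosurvival gene of blood and immune cells, averaged 1.11 ± 1.2 CPM in KA+NBP, 6.75 ± 0.53 CPM in KA and 0.576 ± 0.20 CPM in sham libraries (SD, n = 3). Its log2 fold change was 3.52 in KA against sham (SE 0.62, edgeR adjusted p = 0.00428) and -2.59 in KA+NBP against KA (SE 0.57, adjusted p = 0.0152). Its near-identical paralogs Bcl2a1a and Bcl2a1d share reads with it, so the split among them is uncertain; Bcl2a1d summed to 49 counts in KA and 1 in sham libraries, a ratio of 47.6 with a counting interval of 8.15 to 1920. Bcl2a1a averaged 0.907 CPM in KA and 0.193 CPM in sham libraries, and it was not called (adjusted p = 0.0721). Bcl2l2, which encodes BCL-W, went the other way, with a log2 fold change of -0.34 in KA against sham (SE 0.08, adjusted p = 0.0135) and 0.28 in KA+NBP against KA (SE 0.08, adjusted p = 0.0388).

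Other effector and BH3-only genes split evenly in KA against sham, 2 rising and 2 falling of 6 tested. The shares of all genes called were 33.6% in that comparison and 22.7% in KA+NBP against KA. Bmf, a BH3-only gene tied to the cytoskeleton, averaged 4.83 ± 1.8 CPM in KA+NBP, 10.1 ± 1.7 CPM in KA and 4.16 ± 0.48 CPM in sham libraries, with a log2 fold change of 1.27 in KA against sham (SE 0.26, edgeR adjusted p = 0.00654). Hrk, a BH3-only gene known from neurons, averaged 51.3 ± 14 CPM in KA+NBP, 28.8 ± 3.3 CPM in KA and 62.0 ± 7.4 CPM in sham libraries, and fell in KA against sham by 1.11 on the log2 scale (SE 0.19, adjusted p = 0.00392). Bmf and Hrk were the 2 genes of this list called in KA+NBP against KA, with log2 fold changes of -1.06 (adjusted p = 0.0197) and 0.83 (adjusted p = 0.0170). Bok rose in KA against sham (0.54, adjusted p = 0.0276) and Bid, which caspase-8 cleaves to engage the mitochondrial pathway, fell (-0.54, adjusted p = 0.0361). Of the BCL2-like genes of less settled role, 0 of 3 were called, with log2 fold changes of 0.79 for Bcl2l12, 0.06 for Bcl2l13 and -0.20 for Bcl2l15.

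Among other caspases 4 of 7 rose and 0 fell in KA against sham, and 2 fell in KA+NBP against KA. Over all tested genes the shares called were 33.6% and 22.7% in these comparisons. Casp4, which senses bacterial lipopolysaccharide, had log2 fold changes of 1.38 in KA against sham (SE 0.46, edgeR adjusted p = 0.0438) and -1.73 in KA+NBP against KA (SE 0.47, adjusted p = 0.0305). Casp6 (0.91, adjusted p = 0.0118) and Casp12 (2.02, adjusted p = 0.0302) rose in KA against sham and were not called in KA+NBP against KA. Of 8 apoptosome and mitochondrial factors, 2 rose in KA against sham, a smaller share than that of all genes. They were Cycs (cytochrome c, 0.31, adjusted p = 0.0180) and Diablo (an antagonist of inhibitor of apoptosis proteins, 0.35, adjusted p = 0.0303). Apaf1, the scaffold on which caspase-9 is activated, had -0.35 (adjusted p = 0.108). When KA+NBP was set against KA, 1 of the 8 fell, Cycs (-0.27, adjusted p = 0.0375), again a smaller share than that of all genes.

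The death receptor pathway, which feeds caspase-8, had 4 of 11 tested genes higher and 1 lower in KA against sham. Of all tested genes 33.6% were called there. Fas, a death receptor, averaged 2.01 ± 0.71 CPM in KA+NBP, 4.77 ± 0.81 CPM in KA and 1.44 ± 0.22 CPM in sham libraries, with log2 fold changes of 1.73 in KA against sham (SE 0.28, edgeR adjusted p = 0.00332) and -1.24 in KA+NBP against KA (SE 0.27, adjusted p = 0.0151). Tnfrsf1a, the main TNF receptor, averaged 12.8 ± 7.2 CPM in KA+NBP, 40.8 ± 9.0 CPM in KA and 9.67 ± 1.1 CPM in sham libraries, with 2.08 (SE 0.34, adjusted p = 0.00325) and -1.67 (SE 0.33, adjusted p = 0.0105). These were the 2 genes of the list called in KA+NBP against KA, where 22.7% of all genes were called. Cflar, which encodes the caspase-8 inhibitor c-FLIP, rose in KA against sham (0.93, adjusted p = 0.0157), as did Ripk1 (0.82, adjusted p = 0.0154). The ligand genes Fasl and Tnf had too few counts to be tested.

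Beside 33.6% of all genes called in KA against sham and 22.7% in KA+NBP against KA stand the next 2 lists. Inhibitor of apoptosis genes had 5 of 10 higher and 1 lower in KA against sham, and 1 higher and 3 lower in KA+NBP against KA. Of the 5, Naip2 (2.33, edgeR adjusted p = 0.00529), Naip5 (2.54, adjusted p = 0.00504) and Naip6 (2.25, adjusted p = 0.00413) belong to 1 paralogous family known in the mouse as sensors of bacterial proteins, and their shared sequence makes the split among them uncertain. The same 3 fell in KA+NBP against KA, by 1.66, 1.87 and 2.04 on the log2 scale. Birc6 had -0.39 (adjusted p = 0.00461) in KA against sham and 0.31 (adjusted p = 0.0172) in KA+NBP against KA. Of the necroptosis and pyroptosis genes 2 of 4 rose in KA against sham, Gsdmd, the pore of pyroptosis (1.42, adjusted p = 0.0137), and Zbp1 (4.33, SE 1.15, adjusted p = 0.0194). Zbp1 summed to 172 counts in KA and 8 in sham libraries, so the size of its change is uncertain. Gsdmd was the 1 of the 4 called in KA+NBP against KA (-1.33, adjusted p = 0.0249), and Ripk3, the kinase of necroptosis that caspase-8 holds in check, had 0.91 (adjusted p = 0.106) in KA against sham. Mlkl was not tested for lack of counts.

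Of 14 genes of the p53 pathway, which controls Bbc3 among others, 5 rose and 0 fell in KA against sham, a share close to the 33.6% of all genes called. The 5 became 3 and 2 without KA replicates 2 and 3, and 2, 1 and 1 without sham replicates 1, 2 and 3. Trp53 itself averaged 24.5 ± 2.1 CPM in KA+NBP, 29.8 ± 1.4 CPM in KA and 22.1 ± 1.9 CPM in sham libraries, with a log2 fold change of 0.43 in KA against sham (SE 0.09, edgeR adjusted p = 0.00870). Gadd45a (1.03, adjusted p = 0.0253), Aen (0.37, adjusted p = 0.0150) and Ccng1 (0.28, adjusted p = 0.0260) rose with it. Against KA, in KA+NBP libraries 1 gene of the list rose and 2 fell, a share close to the 22.7% of all genes. Aen was 1 of those that fell, at -0.34 (adjusted p = 0.0299). Of 9 genes of stress signalling to BH3-only genes 1 rose and 2 fell in KA against sham, Ddit3 (0.45, adjusted p = 0.0220), Mapk8 (-0.44, adjusted p = 0.0129) and Mapk10 (-0.48, adjusted p = 0.0384), again a share close to the 33.6% of all genes. Mapk8, a JNK kinase that can activate BIM, was the 1 gene of that list called in KA+NBP against KA (0.35, adjusted p = 0.0436).

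**Figure D5:**
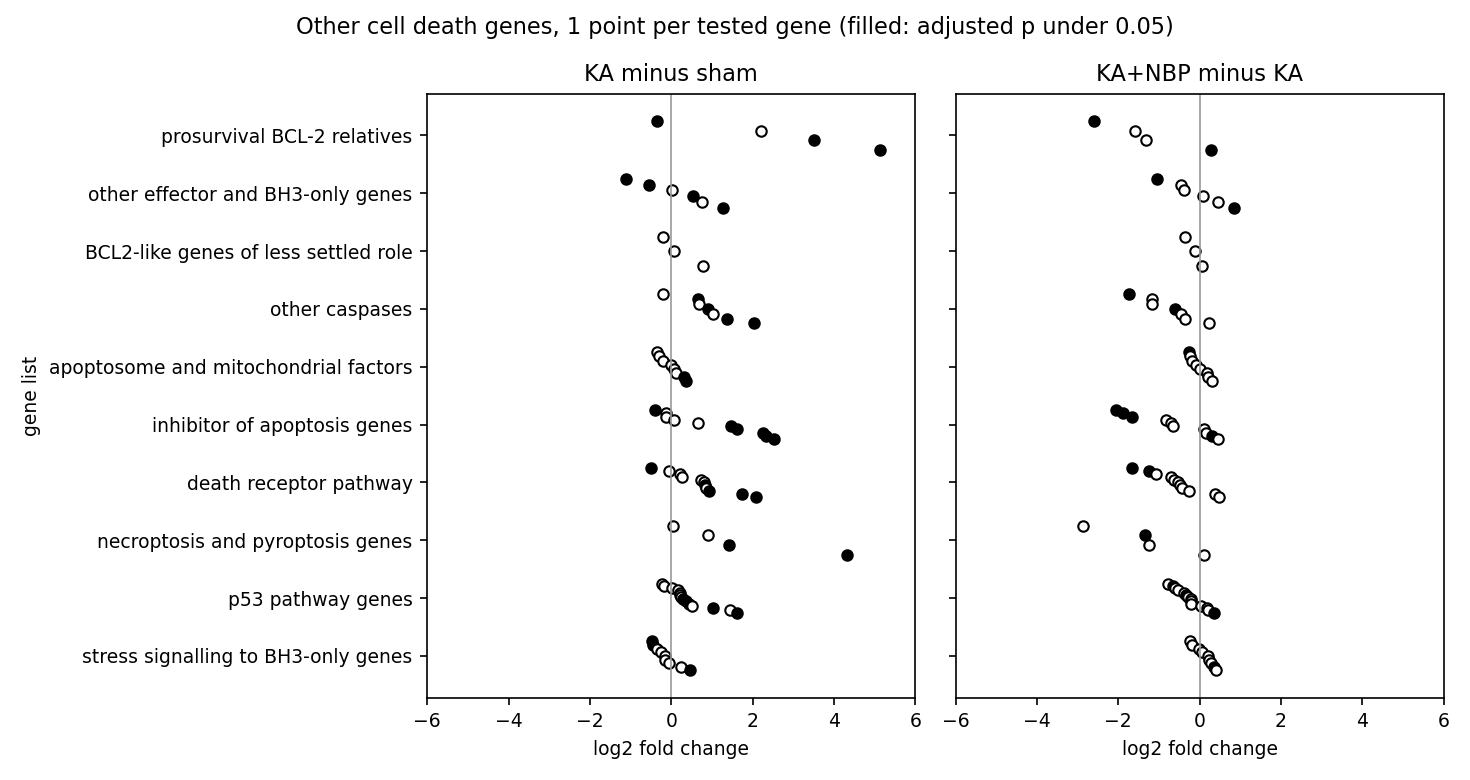
Log2 fold change (x axis) of each tested gene of the 10 cell death lists (y axis) in KA minus sham and KA+NBP minus KA, 1 point per gene, filled where the adjusted p is under 0.05. In the left panel 27 filled points lie above 0 and 7 below, and in the right panel 5 lie above 0 and 13 below.

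For the 3 members with the widest range of log2 CPM over the 9 libraries, the genes most like them were found by the root mean square difference of centred log2 CPM. Casp8 spanned 1.97 log2 units, and nearest to it were Tcirg1 (0.118), Lair1 (0.123) and Rhoh (0.127). Bcl2 spanned 1.32, and nearest to it were Cyp4v3 (0.0998), Sox9 (0.104) and Abhd4 (0.116). Mcl1 spanned 1.198, and nearest to it were Kctd5 (0.0607), Nek6 (0.0650) and Slc2a13 (0.0654). These 9 neighbours are a description of 9 libraries, which all share the same groups.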

How the data were processed

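The submitters' processing notes name GRCm39, DESeq2 1.4.5, RSEM 1.3.1 and Bowtie2; the role of each is not given in the sources used here. The authors deposited, for 18474 genes in 9 libraries, estimated counts, TPM and FPKM. Of the estimated counts as deposited, 5.65 to 6.61% in a library are fractional; they were rounded. TPM as deposited by the authors served for levels between genes, and FPKM as deposited by the authors for 1 alternative ratio. Here counts were fitted in R 4.3.3 with edgeR 4.0.16 (filterByExpr, TMM with factors 0.975 to 1.04, 1 mean per group over all 9 libraries, quasi-likelihood F test, Benjamini-Hochberg over 14752 genes, threshold 0.05). The SE is the absolute log2 fold change over the square root of F. Log2 CPM used a prior count of 2. Alternatives were DESeq2 1.42.0, limma 3.58.1 on log2(TPM + 0.5), other scalings, no filter, the 2 groups compared alone, the replicate number as a block, and each library left out. The code was tested on simulated data. No libraries were identical.

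Members and lists were chosen with earlier results of these data known. Named besides the members were up to 4 genes per list with the smallest p in KA minus sham, and the 3 nearest patterns of the 3 widest-ranging members, except items not reported here. Deviations of same-numbered libraries correlated at 0.301, 0.332 and 0.126 between KA+NBP and sham, and at -0.045 to 0.0447 in pairs with KA. Differently numbered libraries of KA+NBP and sham correlated at -0.31 to 0.192. The value of 0.192 was for KA+NBP replicate 3 with sham replicate 1, above the 0.126 with its own number. These values therefore do not settle a pairing. The block changed no call in KA+NBP against sham. Intervals and floors from counts (3 counts for a 0) cover counting error only. The strand of 1628 of 14499 genes matched to RefSeq, Bcl2 included, differed from RefSeq in the deposited table, so no result uses the deposited strand.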

Additional observations from a re-analysis of the deposited data

How the results depend on the processing

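Bcl2, Mcl1, Bak1, Casp8 and Casp9 kept their calls in KA against sham in all 16 alternatives, and Mcl1 in KA+NBP against KA. In KA+NBP against KA, Bak1, Casp8 and Casp9 were called in 10 of 16 and Bcl2 in 5 of 16, with adjusted p up to 0.144; the cause was not tested. Bax lost its KA against sham call with the replicate block (adjusted p = 0.0582), and Bcl2l1 gained one in 3 of 16. That block gave 4784 genes in KA against sham, 3189 in KA+NBP against KA and 0 in KA+NBP against sham. Leaving out 1 library gave 2721 (without sham replicate 1; 2762 without sham replicate 3) to 6700 (without KA+NBP replicate 2) genes in KA against sham, 1295 (without KA+NBP replicate 1) to 6355 (without KA+NBP replicate 2) genes and 1 to 7 members in KA+NBP against KA, and 0 to 1 gene in KA+NBP against sham. With the 2 groups alone KA+NBP against KA had 1065 genes and 1 member, while KA against sham had 6372 genes and 7 members; the cause was not tested. The 10 pathway lists had 13 (without sham replicate 3) to 47 (without KA+NBP replicate 2) calls in KA against sham and 5 to 45 in KA+NBP against KA, where the 2 groups alone gave 2. DESeq2 called 1 gene in KA+NBP against sham. By limma on log2 TPM, KA against sham had 2192 higher and 3125 lower genes, against 2802 and 2159 by edgeR, and KA+NBP against KA had 2244 and 1518, against 1480 and 1875, with the median of all genes in KA against sham at -0.06.

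Values near 0 changed sign. Bbc3 in KA against sham was -0.0103 by DESeq2, -0.0101 by RLE, -0.182 by limma on TPM, -0.00559 without a filter and -0.0427 with the block. Bcl2l1 in KA+NBP against sham was 0.00893 with library totals and 0.000943 with the 2 groups alone. Leaving out 1 library, log2 fold changes ran from -0.246 to 0.266 for Bbc3 in KA against sham and from -0.163 to 0.349 in KA+NBP against KA. In KA+NBP against sham they ran from -0.286 to 0.00383 for Bcl2l11, -0.0439 to 0.251 for Bbc3, -0.0771 to 0.508 for Bcl2, -0.0688 to 0.0795 for Bcl2l1, -0.0494 to 0.205 for Mcl1, -0.0159 to 0.211 for Bak1 and -0.113 to 0.648 for Casp8. Folds of KA over sham means in CPM were 2.14 for Bcl2, 0.866 for Bcl2l1, 1.58 for Bak1 and 3.15 for Casp8, where TPM gave 2.03, 0.817, 1.5 and 2.95.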
